A study of Oryza sativa Japonica Group with 4 samples.

Results

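Among the 18813 regions of rice chromatin enriched for crotonylated H3K14 (H3K14cr), 4406 were broad and free of any region found with a pan-crotonyllysine antibody (Kcr). They were chosen by 2 criteria, a width (end minus start) over 2000 bp and no overlap of 1 bp or more with any of the 10923 Kcr regions. The 4406 regions make up 23.4% of the H3K14cr regions and 36.1% of the H3K14cr bases (12.9 Mb). They were set beside the other H3K14cr regions, namely 1962 broad regions with Kcr, 7426 narrow regions (up to 2000 bp) without Kcr and 5019 narrow regions with Kcr.

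The material was Nipponbare, a japonica rice cultivar whose seeds were germinated for 72 h and whose seedlings were taken at 2 weeks as mainly leaf tissue. Chromatin immunoprecipitation and sequencing (ChIP-seq) gave 2 libraries with an antibody against H3K14cr and 2 with the pan-Kcr antibody. No other genotype or treatment enters; a mock precipitation with normal rabbit serum, described in the labels' protocols, is not analysed here. Each mark has 1 list of regions for both replicates, with positions on 12 chromosomes and no score or read number, so the depth is unknown, no spread between replicates can be given and no test was made. Every difference below is a difference between lists of positions. The intervals are 95% Wilson intervals for shares and exact binomial order-statistic intervals for medians, and both cover counting error over regions only.

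Lysine crotonylation is a short-chain acyl modification that acyltransferases place on histones from crotonyl-CoA. In mammalian cells it is found mostly at active promoters and enhancers, where it accompanies histone acetylation. The pan antibody is raised against crotonyllysine in any sequence context, and the H3K14cr antibody against 1 site in the tail of histone H3. In principle a nucleosome with H3K14cr is also a target of the pan antibody, so the broad regions described here are those where only the site-specific list reports the mark. A region missing from the Kcr list may still carry Kcr below the threshold of that list, and no source at hand names that threshold.

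A larger share of the broad than of the narrow H3K14cr regions lacked Kcr. Of 6368 regions over 2000 bp, 4406 or 69.2% (68.0 to 70.3%) had no Kcr, against 7426 of 12445 narrow regions, or 59.7% (58.8 to 60.5%). Over all H3K14cr regions the share was 62.9%. Width and overlap both belong to the criteria that chose the regions, so these shares are a description. The relation to width was not a steady one. The share without Kcr was 57.1% both up to 1000 bp and from 1000 to 1500 bp, 64.7% (63.2 to 66.1%) from 1500 to 2000 bp and 68.7% (66.9 to 70.5%) from 2000 to 2500 bp. It reached 73.1% (69.3 to 76.6%) in the 569 regions of 3500 to 4000 bp. Beyond that it was lower, with 65.1% (60.8 to 69.1%) in the 501 regions of 4000 to 5000 bp and 62.0% (54.5 to 69.1%) in the 166 regions of 5000 to 6000 bp. The 58 regions over 6000 bp had 65.5%, with a wide interval of 52.7 to 76.4%. Regions of 3500 to 4000 bp thus had the highest share of the 10 width classes, and its interval did not overlap that of the next wider class, though it overlapped those of the 3 classes from 2000 to 3500 bp and that of the regions over 6000 bp.

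**Figure D1:**
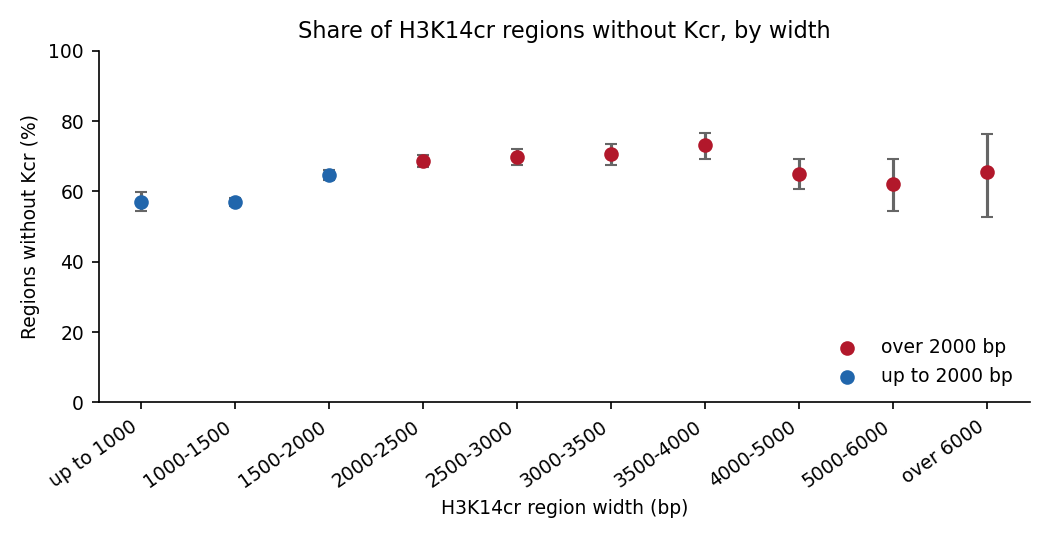
Share of H3K14cr regions that overlap no Kcr region (%, y axis) in 10 classes of region width (bp, x axis), with 95% Wilson intervals as bars; red points are regions over 2000 bp, blue points narrower ones. The share is 57.1% in the narrowest class, 73.1% at 3500 to 4000 bp and 65.1% at 4000 to 5000 bp.

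The broad regions without Kcr were about as wide as those with it. Their median width was 2691 bp (2661 to 2727 bp), and the middle part of their widths, between the quartiles, ran from 2276 to 3308 bp. Broad regions with Kcr had a median of 2661.5 bp (2627 to 2709 bp) and quartiles of 2295 and 3321 bp. The far tail was thinner without Kcr. Regions over 4000 bp were 467 of 4406 (10.6%) without Kcr and 258 of 1962 (13.1%) with Kcr, and those over 5000 bp were 141 (3.20%) and 83 (4.23%). Where a broad region did meet Kcr, the contact was extensive: Kcr covered a median of 59.6% of it (interquartile range 43.9 to 82.2%), and 15 of the 1962 regions (0.765%) had less than 10% covered. The covered percentage fell with width, with a median of 69.8% at 2000 to 2500 bp and 41.3% at 4000 to 5000 bp. Width is the divisor of this percentage, and the median width over the Kcr list was 1205 bp, so the fall is a description. On H3K14cr regions over 4000 bp, Kcr thus typically left the larger part of the region uncovered even where it was present.

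The 5 widest regions without Kcr measured 7677 bp on chromosome 12 (4803223 to 4810900), 7372 bp on chromosome 4 (17341107 to 17348479), 7326 bp on chromosome 5 (5907874 to 5915200), 7206 bp on chromosome 12 (16279193 to 16286399) and 7067 bp on chromosome 2 (26557875 to 26564942). Their surroundings differed. The first, on chromosome 12, lay 3293 bp from a broad H3K14cr region with Kcr and 6157 bp from the nearest Kcr region, which was 924 bp wide. The second on that chromosome lay 496 bp from another broad region without Kcr and 79396 bp from any Kcr. The region on chromosome 4 was 62819 bp away from Kcr, the one on chromosome 5 was 13806 bp away, and the one on chromosome 2 was 6096 bp away from a Kcr region of 2122 bp.

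At the width threshold there was no gap in the list. The narrowest broad regions without Kcr had 2001 bp, and 5 had this width, among them chromosome 3, 3343434 to 3345435, and chromosome 4, 21030977 to 21032978 and 30035967 to 30037968. Just outside, 5 regions without Kcr had exactly 2000 bp, among them chromosome 2, 953695 to 955695, chromosome 3, 31557386 to 31559386, and chromosome 5, 8863024 to 8865024. Widths of 2001 to 2100 bp were found in 396 regions without Kcr, and widths of 1901 to 2000 bp in 465. The border at 2000 bp is thus a convention within a continuous range of widths.

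A Kcr region was usually not far from these regions. The median distance from the edge of a broad region without Kcr to the nearest Kcr region was 10330 bp (9762 to 10939 bp), and the interquartile range ran from 4206.5 to 23702 bp. Narrow regions without Kcr, which meet the same overlap criterion, had a median of 11566.5 bp (11159 to 11945 bp) and quartiles of 5079 and 24383 bp. The broad regions were thus the nearer to Kcr by edge at the median. At long range the classes were similar. A Kcr region lay within 50000 bp of 4016 of 4406 broad regions without Kcr (91.1%) and of 6817 of 7426 narrow ones (91.8%). The remaining 390 broad and 609 narrow regions had none within that distance. Measured from midpoints the medians were 11783.5 bp (11274.5 to 12362.5 bp) for broad and 12254 bp for narrow regions without Kcr, a smaller difference than between the edges. The interval for broad regions held the narrow median. The comparison also changed between chromosomes: the broad regions were the nearer by median on 8 of 12, and the farther on chromosomes 6, 10, 11 and 12.

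The difference from narrow regions lay at short range. A Kcr region was found within 1000 bp of 286 broad regions without Kcr, or 6.49% (5.80 to 7.26%), and of 374 narrow ones, or 5.04% (4.56 to 5.56%), where the share over all H3K14cr regions without Kcr was 5.58%. Within 5000 bp the shares were 29.5% (28.1 to 30.8%) for broad and 24.5% (23.5 to 25.5%) for narrow regions, beside 26.3% over both. Within 10000 bp they were 49.1% (47.7 to 50.6%) and 45.2% (44.0 to 46.3%), beside 46.6% over both. At 20000 bp they had met, with 69.4% for broad and 69.1% for narrow regions.

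**Figure D2:**
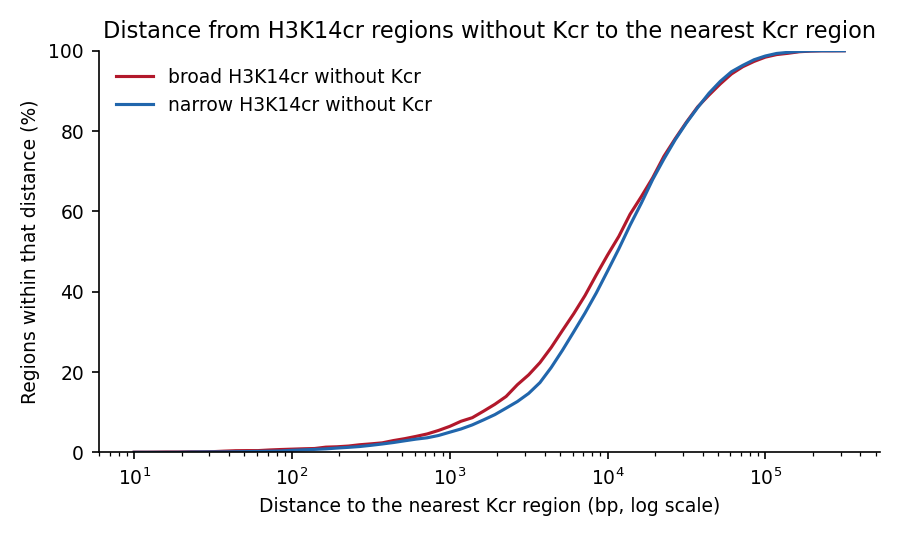
Cumulative share (%, y axis) of H3K14cr regions without Kcr that have a Kcr region within the distance on the x axis (bp, log scale), for 4406 broad (red) and 7426 narrow (blue) regions. The red line lies above the blue one up to about 20000 bp, with 0.817% against 0.525% at 100 bp and 29.5% against 24.5% at 5000 bp. At 20000 bp the lines nearly meet.

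The Kcr regions that lay next to a broad region without Kcr were often Kcr regions with no H3K14cr of their own. Where the nearest Kcr region was within 200 bp of a broad region without Kcr, it overlapped no H3K14cr region in 49 of 63 cases (77.8%). For narrow regions without Kcr this was so in 38 of 83 cases (45.8%). Within 1000 bp the numbers were 194 of 286 (67.8%) for broad and 164 of 374 (43.9%) for narrow regions. Over any distance, the nearest Kcr region overlapped H3K14cr for 2642 of 4406 broad regions, or 60.0% (58.5 to 61.4%), and for 4731 of 7426 narrow regions, or 63.7% (62.6 to 64.8%), beside 63.9% of the whole Kcr list. A Kcr region beside a region without Kcr can overlap H3K14cr only where a second H3K14cr region reaches it. The counts at short range are thus partly set by the overlap criterion. An H3K14cr neighbour lay within 1000 bp of 6.72% of broad and 10.1% of narrow regions without Kcr. Other H3K14cr regions took 1.21% of the bases within 500 bp of broad regions without Kcr and 2.05% beside narrow ones. Their part in the difference between broad and narrow regions was not tested. The nearest Kcr regions had a median width of 1202.5 bp for broad and 1181 bp for narrow regions, against 1205 bp over the Kcr list.

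The 3 shortest distances to Kcr were 5, 10 and 10 bp. On chromosome 2 a broad region (6776438 to 6778550) ended 5 bp before a Kcr region (6778555 to 6779557) that overlapped a narrow H3K14cr region. On chromosome 4 a region of 3215 bp (29192176 to 29195391) ended 10 bp before a Kcr region (29195401 to 29197166) with no H3K14cr. On chromosome 1 a region (37314990 to 37317015) began 10 bp after a Kcr region (37313611 to 37314980) that overlapped another H3K14cr region. Whether such neighbours are 1 domain read differently by each antibody cannot be told apart from separate domains with region lists alone. At the other extreme, a region on chromosome 6 (18464042 to 18466726) lay 298514 bp from Kcr and 259384 bp from its nearest H3K14cr neighbour. The next farthest were on chromosome 4 (14486642 to 14489832), 221306 bp from Kcr, and on chromosome 9 (8868480 to 8871101), 215828 bp from Kcr. These last 2 had a narrow H3K14cr region without Kcr as their nearest H3K14cr neighbour.

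Coverage outside the edges showed how Kcr resumed around the broad regions. In the first 250 bp beyond either edge of a broad region without Kcr, 0.464% of bases lay in Kcr regions, against 0.333% beside narrow regions without Kcr. These low values are partly set by the overlap criterion, since a Kcr region that starts this close would often reach in. Beyond the edge the share of bases in Kcr was 2.83% at 750 to 1000 bp, 3.93% at 1500 to 2000 bp and 4.24% at 2000 to 3000 bp for broad regions without Kcr, where the mean over the chromosomes was 3.93%. Around narrow regions without Kcr it was 2.16%, 3.0% and 3.03% at the same distances, and it was above the mean only from 5000 bp on. From 5000 to 10000 bp the shares were 4.42% for broad and 4.17% for narrow regions without Kcr. Kcr thus returned to about its chromosome-wide level within about 2000 bp of a broad region without Kcr, closer than for a narrow one.

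Broad regions with Kcr had another pattern around them. Kcr that extended past the edge gave 10.3% of bases in the first 250 bp, and the share was 1.57% at 1500 to 2000 bp, against 3.93% around broad regions without Kcr at that distance. At 5000 to 7500 bp the share in Kcr was 6.24% for broad regions with Kcr, and 4.47% for broad regions without Kcr. Narrow regions with Kcr had 17.6%, 1.40% and 5.36% at these 3 distances. Both classes hold Kcr by definition and Kcr regions lie apart from each other, so the values near the edge are partly set by the overlap criterion. At 20000 to 50000 bp the shares were 4.96% with Kcr and 4.22% without. H3K14cr itself was sparse beside broad and narrow regions of either kind. In the first 500 bp it took 1.21% of bases beside broad regions without Kcr and 1.11% beside broad regions with Kcr. It took 2.05% beside narrow regions without Kcr and 1.57% beside narrow regions with Kcr. Regions of this list lie apart from each other, so low values close to an edge are partly set by the list itself. From 5000 to 10000 bp H3K14cr took 11.3%, 12.5%, 10.7% and 11.3% in the same order, beside a mean of 9.55%.

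**Figure D3:**
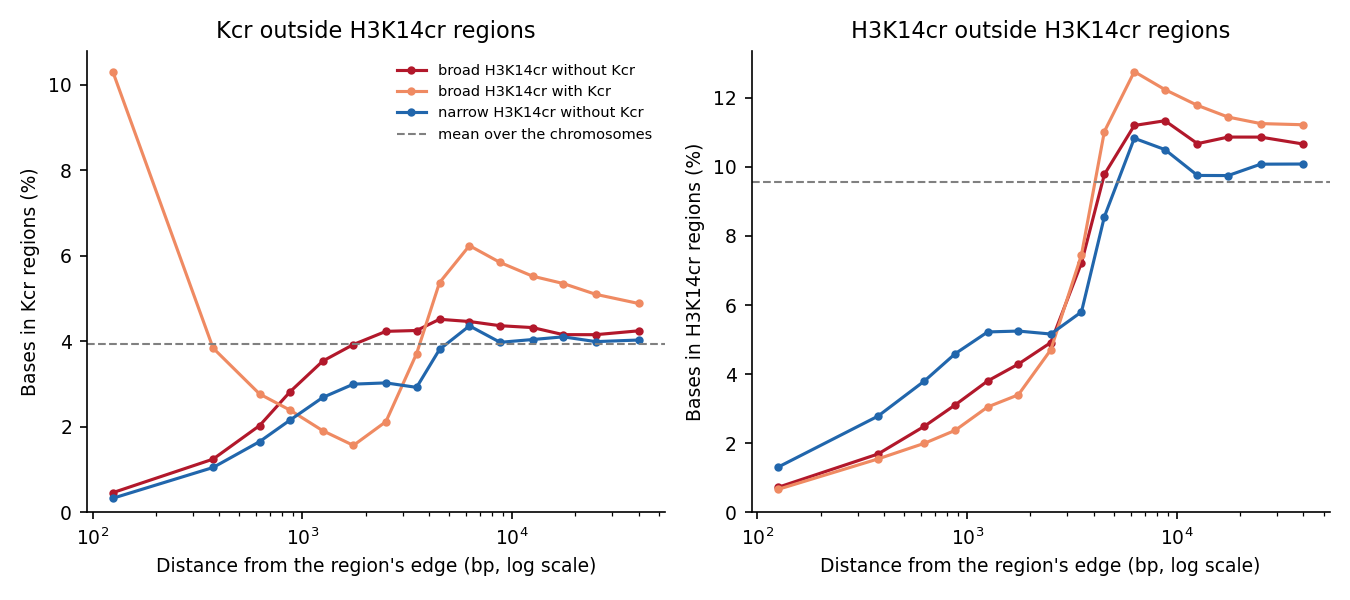
Share of bases (%, y axes) that lie in Kcr regions (left) and in other H3K14cr regions (right) by distance from the edge of an H3K14cr region (bp, log scale), for broad regions without Kcr (red), broad regions with Kcr (orange) and narrow regions without Kcr (blue); points are means over both sides and all regions of a class, and the dashed line is the mean over the chromosomes. Kcr around broad regions without Kcr is at the mean of 3.93% by 1500 to 2000 bp, while it is 3.0% around narrow regions without Kcr and 1.57% around broad regions with Kcr at that distance.

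The classes of the H3K14cr neighbours of broad regions without Kcr came close to the make-up of the list. The nearest H3K14cr neighbour was at a median of 6688.5 bp (6478 to 6902 bp). It was another broad region without Kcr for 1139 of 4406, or 25.9% (24.6 to 27.2%), where 23.3% of all H3K14cr regions have such a neighbour. It was a broad region with Kcr for 10.3%, a narrow region without Kcr for 38.5% and a narrow region with Kcr for 25.4%. These classes make up 10.4%, 39.5% and 26.7% of the list. For broad regions with Kcr, by contrast, the nearest neighbour was another broad region with Kcr in 15.0% (13.5 to 16.7%) of cases. An H3K14cr neighbour lay within 200 bp of 90 of the 4406 broad regions without Kcr (2.04%), of 39 of 1962 broad regions with Kcr (1.99%) and of 285 of 7426 narrow regions without Kcr (3.84%), beside 2.93% of all H3K14cr regions. No region of either list lay within 20000 bp of 277 broad regions without Kcr (6.29%) and of 511 narrow ones (6.88%), or 6.66% of both together. None lay within 50000 bp of 24 broad (0.545%) and 21 narrow regions without Kcr (0.283%), or 0.38% of both.

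Along the order of H3K14cr regions, 1952 of the 4406 (44.3%) stood in runs of 2 or more consecutive broad regions without Kcr, a class that makes up 23.4% of the list. Runs of their own class held 24.9% of broad regions with Kcr, 65.1% of narrow regions without Kcr and 49.3% of narrow regions with Kcr. These classes make up 10.4%, 39.5% and 26.7% of the list, so the share in runs followed the size of the class. The next H3K14cr region along the chromosome was another broad region without Kcr after 25.6% (24.4 to 26.9%) of broad regions without Kcr, near the 23.4% after all H3K14cr regions and the 24.0% (22.2 to 26.0%) after broad regions with Kcr. The runs are described here by position. There were 606 runs of 2 regions, 158 runs of 3, 37 runs of 4, 16 runs of 5, 5 runs of 6 and 1 run of 8. The run of 8 lay on chromosome 8 from 17264869 to 17506868, a span of 241999 bp with no Kcr region in it. Its regions were 2006 to 4153 bp wide, and the one at 17366413 to 17370566 was 139494 bp from Kcr. The 3 shortest spans that held 4 such regions were 24841 bp on chromosome 12 (21779478 to 21804319), 25037 bp on chromosome 4 (32225421 to 32250458) and 25917 bp on chromosome 4 (18736181 to 18762098). Broad regions without Kcr took 53.8%, 42.3% and 43.6% of the bases in these spans. The first of them, whose regions were 2594 to 4301 bp wide, belonged to a run of 6 regions from 21779478 to 21820319 without a Kcr region, the third held 1 Kcr region between its regions, and the second held none.

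The chromosomes differed in how many broad regions without Kcr they carried and in how far these lay from Kcr. The density over all chromosomes was 11.8 regions per Mb. It was highest on chromosome 3 with 14.4 per Mb (526 regions) and lowest on chromosome 7 with 9.68 per Mb (287 regions). Chromosome 4 had 13.7 per Mb although its Kcr density, 25.9 regions per Mb, was among the lower ones. Of its broad regions, chromosome 12 had the largest share without Kcr, 77.9% (73.5 to 81.7%), and chromosome 2 the smallest, 64.3% (60.7 to 67.8%). Chromosome 11 came next to chromosome 12 with 75.9% (71.5 to 79.8%), and the intervals of these 2 chromosomes overlapped each other and those of further chromosomes, such as chromosome 6 (73.1%, 68.9 to 76.9%). Among narrow regions the share without Kcr had a smaller range. It was lowest on chromosome 3 with 56.8% (54.1 to 59.5%) and highest on chromosome 4 with 64.7% (61.8 to 67.4%), and it was 59.5% on chromosome 12 and 59.9% on chromosome 11. On each of the 12 chromosomes the share was higher among broad than among narrow regions, and on 10 of them the intervals did not overlap.

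Chromosomes 11 and 12 also held the fewest broad regions with Kcr, at 3.34 and 3.12 per Mb, against 7.38 per Mb on chromosome 1. Their density of broad regions without Kcr, 10.5 and 11.0 per Mb, was in the middle of the range. The median distance from a broad region without Kcr to Kcr was 17087 bp on chromosome 11 and 18791 bp on chromosome 12, and 8368 bp on chromosome 1. For narrow regions without Kcr these medians were 13111, 14911 and 9785 bp. Across the 12 chromosomes, the share of broad regions without Kcr and the Kcr density had a Spearman's rho of -0.78. Since a denser Kcr list meets more regions, and the same regions enter both quantities, this is a description. Median widths were alike, from 2614 bp on chromosome 5 to 2744 bp on chromosome 12.

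**Figure D4:**
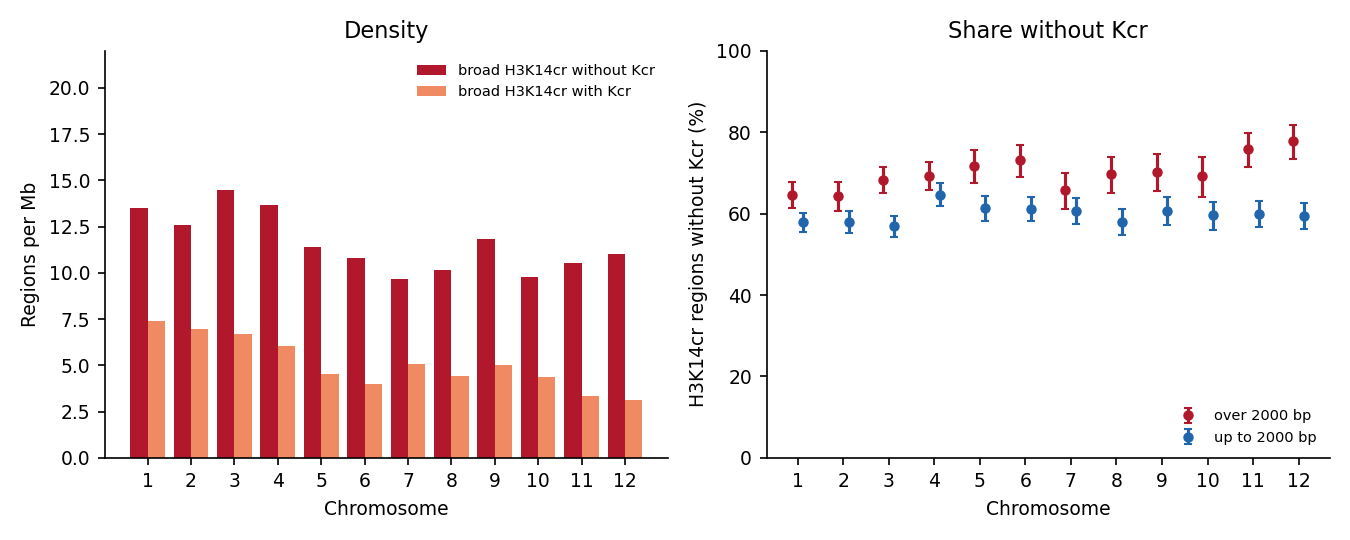
Left, number of broad H3K14cr regions per Mb (y axis) without Kcr (red) and with Kcr (orange) on each of the 12 chromosomes (x axis). Right, share of H3K14cr regions without Kcr (%, y axis) among broad (red) and narrow (blue) regions, with 95% Wilson intervals; the broad share is highest on chromosomes 12 (77.9%) and 11 (75.9%), where the narrow shares are 59.5% and 59.9%.

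In windows of 1 Mb the number of broad regions without Kcr varied widely at any given number of Kcr regions. A full window held a median of 11 of them (interquartile range 8 to 15, range 1 to 32, 367 windows). The variance of the number was 2.33 times its mean, against 2.42 for broad regions with Kcr, 1.5 for narrow regions without Kcr and 1.74 for narrow regions with Kcr. Broad regions of either kind were thus the more unevenly spread, for a Poisson count has a ratio of 1. Spearman's rho was taken over all 379 windows, which include the partial window at the end of each chromosome. For the number of broad regions without Kcr it was 0.35 with the number of Kcr regions (0.33 in the 367 full windows alone). It was 0.46 with broad regions with Kcr, 0.25 with narrow regions without Kcr and 0.07 with narrow regions with Kcr. Narrow regions without Kcr, which meet the same overlap criterion, had a rho of 0.16 with the number of Kcr regions. Broad regions with Kcr had a rho of 0.69 with it, but each of them holds Kcr by definition. Windows share gene content and neighbours, so these values are descriptions. Within chromosomes the rho with Kcr ran from -0.43 on chromosome 12 to 0.75 on chromosome 5, and was above 0 on 10 of 12.

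The full windows were also put into 4 groups by their Kcr number. Windows with 7 to 21 Kcr regions held 9.76 ± 4.36 broad regions without Kcr (SD, n = 92 windows), those with 22 to 28 held 10.4 ± 3.80 (n = 94 windows), those with 29 to 35 held 12.6 ± 5.69 (n = 90 windows) and those with 36 to 65 held 14.4 ± 5.67 (n = 91 windows). Broad regions with Kcr numbered 2.40, 4.14, 5.60 and 8.53 per window in the same 4 groups. The share of broad regions without Kcr was 80.3% (77.8 to 82.5%) in the windows poorest in Kcr and 62.8% (60.7 to 64.8%) in the richest. Among narrow regions it was 67.8% (66.0 to 69.7%) and 54.1% (52.4 to 55.8%). The windows were grouped by Kcr number, which also sets how many regions can meet Kcr, so these shares are a description. Regions without Kcr were slightly more often broad where Kcr was dense, with 35.2%, 34.1%, 37.0% and 41.4% of them over 2000 bp in the 4 groups. This was not particular to them. Among regions with Kcr, the poorest windows held 2.40 broad and 8.53 narrow ones on average, and the richest 8.53 broad and 17.2 narrow ones.

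**Figure D5:**
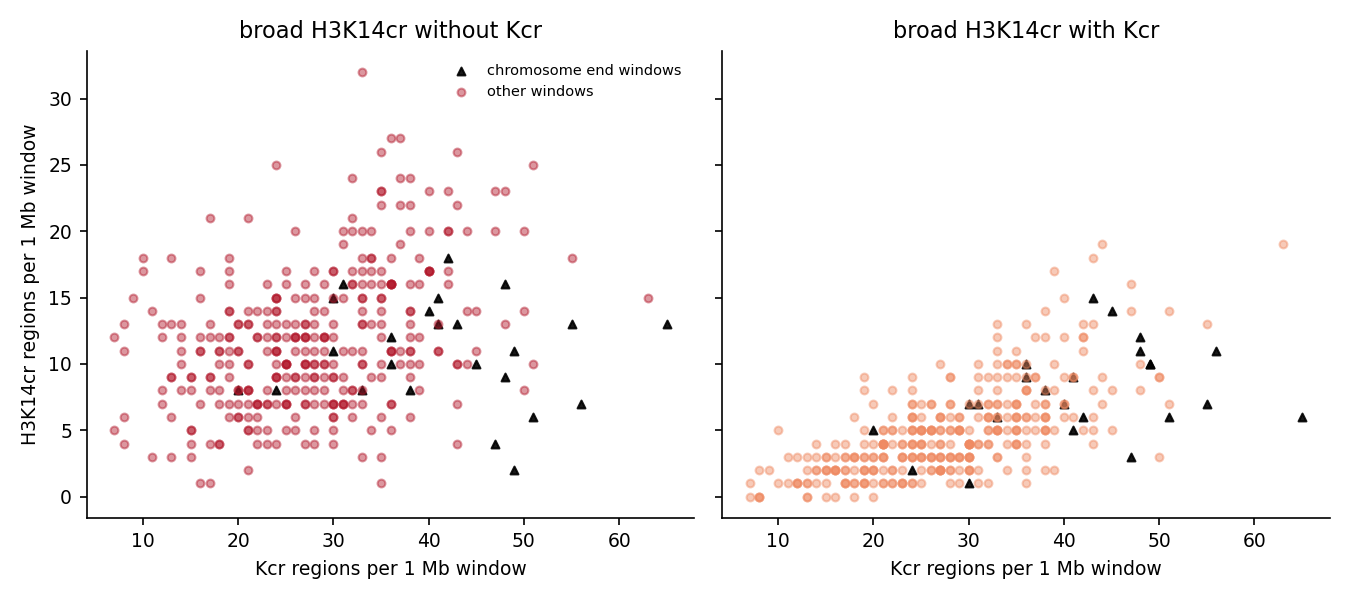
Number of broad H3K14cr regions per 1 Mb window (y axis) against the number of Kcr regions in the same window (x axis), for broad regions without Kcr (left, red) and with Kcr (right, orange) in 367 full windows; black triangles are the 24 windows at chromosome ends. The left cloud is wide and only loosely tilted, with 1 to 32 regions per window, while the right one rises more steeply with Kcr.

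The window richest in broad regions without Kcr was chromosome 1, 36000001 to 37000000, with 32 of them among 82 H3K14cr regions and with 33 Kcr regions. A single one was found in each of 3 windows. Chromosome 7, 12000001 to 13000000, had 29 H3K14cr regions and 17 Kcr regions, and chromosome 11, 12000001 to 13000000, had 15 and 16. Chromosome 9, 2000001 to 3000000, differed from both in being rich in Kcr, with 35 Kcr regions and 46 H3K14cr regions, of which 26 were narrow with Kcr and 15 narrow without. A low number of broad regions without Kcr thus occurred in sparse windows and in 1 with many narrow regions.

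The windows at chromosome ends held on average slightly fewer broad regions without Kcr than the other windows, and more with Kcr. The 24 end windows held 10.8 ± 4.01 of them (SD, n = 24 windows) and the others 11.8 ± 5.32 (n = 343 windows). End windows held 260 of the 4323 in full windows, or 6.01%, where 6.94% of all H3K14cr regions and 6.54% of the windows were at ends. Broad regions with Kcr numbered 7.79 ± 3.49 in the end windows and 4.97 ± 3.46 elsewhere. The share of broad regions that lacked Kcr was 58.2% (53.5 to 62.6%) at the ends and 70.5% (69.3 to 71.6%) elsewhere, and among narrow regions it was 51.3% (47.9 to 54.6%) and 60.7% (59.8 to 61.6%). Most end windows were in the group with 36 to 65 Kcr regions, where these shares were 62.8% (60.7 to 64.8%) and 54.1% (52.4 to 55.8%). Kcr number also sets how many regions can meet Kcr, and its part in the difference at the ends was not tested. For broad regions the share without Kcr was lower at the ends on 11 of 12 chromosomes. The exception was chromosome 5, with 72.3% at its ends and 72.1% elsewhere, and the widest difference was on chromosome 7, with 37.5% of 40 broad regions at its ends and 69.8% of 381 elsewhere. Regions past the last full window of a chromosome are in neither group. On chromosome 5 that window ended at 29000000 bp, while the last region ended at 29.9 Mb. Stretches of similar length were left out on chromosomes 2 and 9, whose last regions ended at 35.9 and 22.9 Mb. On both of these the share was lower at the ends. Whether the exception of chromosome 5 depends on this cut was not tested.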

How the data were processed

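Per the submitters' processing notes, the reads of the 4 ChIP-seq libraries were aligned with Bowtie. Which version, build and peak caller served, at what threshold and with which use of the mock sample, the sources used here do not state. The authors deposited 2 lists, which hold the chromosome, start and end of each region, and the labels assign each list to both replicates of a mark. Positions are printed as deposited, and whether starts count from 0 or 1 is unknown. No region of one list only touched a region of the other (0 cases).

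Overlaps, edge-to-edge distances, runs and window counts (by region midpoint) were computed with Python 3.11.15, numpy 2.4.6, pandas 2.3.3 and scipy 1.17.1, and checked on simulated lists. Chromosome lengths were taken as the last region end in either list, 373.0 Mb in all. End windows are the first and last full 1 Mb windows of a chromosome. The gene table at hand is of another or an unmatched assembly, so genes, sequences and base composition were not analysed here. Regions named by position are the widest, the farthest from and nearest to Kcr, those at the width threshold, the longest run, the 3 shortest spans with 4 regions and the extreme windows. The regions and comparisons were chosen with earlier results of these data known. Alternatives were width thresholds of 1500 and 3000 bp, other criteria for Kcr, merging of close regions, 500 kb windows and full windows only.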

Additional observations from a re-analysis of the deposited data

How the results depend on the processing

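No paired analysis was possible because the replicates of a mark share a single list, which also means that none of them could be left out. Of 22 alternatives on the results compared, 14 lay within the interval of the reported value, or within 1.5 times it for the number of regions. With a threshold of 1500 bp there were 7143 regions without Kcr, 67.4% of those over the threshold, and 39.5% had another such region as nearest H3K14cr neighbour; with 3000 bp there were 1553 regions and 11.3% had such a neighbour. The neighbour share depends on how many regions the threshold admits, and how far this accounts for the change was not tested. Counting Kcr within 500 bp as overlap gave a share without Kcr of 66.9%. The rho between the number of broad regions without Kcr and that of Kcr regions was 0.22 in 500 kb windows; the cause was not tested. The median distance to Kcr was 11783.5 bp from midpoints, an alternative chosen after seeing the data, which adds the part of the region between its edge and its midpoint. Alternatives that need genes or a genome (promoter sizes, base composition) were not run. The unknown depth limits every statement on absence of Kcr.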
